A study of Homo sapiens with 8 samples.

Results

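Peaks of open chromatin at nuclear tRNA genes were collected from 4 ATAC-seq peak lists of U2OS cells, an established human osteosarcoma line. ATAC-seq marks DNA that a transposase can reach, and each peak is a stretch where its cuts are concentrated. The peaks of the 4 lists on chromosomes 1 to 22 and X were merged where they overlapped or touched, which gave 129052 merged peaks. Of these, 236 (0.183%) lay within 500 bp of 1 of the 443 tRNA genes that RefSeq places on those chromosomes of GRCh38.p14, and they are called tRNA peaks here. They were chosen by position alone, without use of their signal.

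The cells had been transfected for 72 h with siOrc6, an siRNA against ORC6, which belongs to the origin recognition complex, the proteins that mark where DNA replication can start, or with the control siRNA siGl3. All cells were held by a double thymidine block and released for 3 h. They were then left untreated or given 5 mM H2O2 for 30 min. Each of the 4 conditions had 2 libraries, 8 in all, and 1 deposited peak list for both, so no spread between libraries and no p-value could be given, and the labels do not say whether the libraries came from separate cultures. Of 12 bone lineage genes, 9 had a peak within 1 kb of an annotated end in all 4 lists, among them COL1A1, RUNX2, SP7 and VIM, but not ALPL, IBSP or TWIST1. The share of all protein-coding genes was 67.7%. The same held for 2 of 4 blood genes (SPI1 and CD3E), 3 of 5 epithelial genes (EPCAM, KRT5 and KRT18) and 3 of 4 neuronal genes (SYP, SNAP25 and TUBB3), so these peaks did not set the bone lineage apart.

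tRNA genes are short genes read by RNA polymerase III. Their promoter lies inside the gene: the factor TFIIIC binds an A box near the start and a B box farther in, and places TFIIIB just upstream, which recruits the polymerase. The genome carries many copies of most tRNAs, often in clusters and often with the same sequence, and cells use some copies more than others. In RefSeq symbols such as TRP-TGG3-2 the letter after TR is the amino acid, the triplet is the anticodon, the first number is a set of genes with the same tRNA sequence, and the last number is the copy. TRX-CAT genes encode the initiator methionine tRNA.

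RefSeq windows of 300 bases around gene starts held 14 of the tRNA genes whole, of which 12 had a tRNA peak and 2 had none. The 9 printed here are 3 pairs of like genes, 1 gene at a region listed as higher in siOrc6, and 2 genes in a stretch almost free of peaks. They are written 5′ to 3′ on the strand whose later part holds the B box core GTTCNANNC, which is in capitals. This short core was present on either strand in 7.48% of all 35116 windows of that length, so a match is a description and not evidence of binding.
TRP-TGG3-2, chr14:20684016-20684087, plus strand: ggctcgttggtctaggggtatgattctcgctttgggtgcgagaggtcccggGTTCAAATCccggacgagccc
TRP-TGG3-5, chr16:3188094-3188165, plus strand: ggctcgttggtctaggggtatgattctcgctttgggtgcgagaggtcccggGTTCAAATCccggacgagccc
TRH-GTG1-9, chr15:45201151-45201222, plus strand: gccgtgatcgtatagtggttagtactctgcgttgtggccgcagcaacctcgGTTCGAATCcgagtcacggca
TRH-GTG1-3, chr1:148281365-148281436, plus strand: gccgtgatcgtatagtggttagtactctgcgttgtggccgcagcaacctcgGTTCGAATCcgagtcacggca
TRN-GTT4-1, chr1:16889677-16889750, plus strand: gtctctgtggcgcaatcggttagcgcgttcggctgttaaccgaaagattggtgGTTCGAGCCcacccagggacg
TRN-GTT6-1, chr1:143735920-143735993, minus strand: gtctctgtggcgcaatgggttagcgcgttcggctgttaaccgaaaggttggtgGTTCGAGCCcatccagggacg
TRI-AAT8-1, chr6:27668583-27668656, plus strand: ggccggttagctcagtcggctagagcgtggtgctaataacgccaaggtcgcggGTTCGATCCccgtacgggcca
TRL-AAG2-2, chr6:28943622-28943703, minus strand: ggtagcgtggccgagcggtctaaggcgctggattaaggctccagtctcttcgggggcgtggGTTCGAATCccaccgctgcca
TRA-AGC2-2, chr6:28863685-28863756, minus strand: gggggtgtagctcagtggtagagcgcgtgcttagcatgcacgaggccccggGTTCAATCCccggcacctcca

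The proline pair TRP-TGG3-2 and TRP-TGG3-5 had 0 differences over 72 bases and lay on different chromosomes, each inside a peak in the top percentile of every list. The peak over TRP-TGG3-2 stood at percentile 99.99 of peak signal in untreated siGl3 and that over TRP-TGG3-5 at 99.4. The histidine pair TRH-GTG1-9 and TRH-GTG1-3 also had 0 differences. TRH-GTG1-9 lay inside a peak at percentile 90.5 of untreated siGl3, while the nearest peak to TRH-GTG1-3, at percentile 75.8, ended 307 bp short of the gene. It was the single gene of 277 with a tRNA peak whose body no peak overlapped (276 were overlapped). The asparagine genes TRN-GTT4-1 and TRN-GTT6-1 differed by 3 substitutions, C17G, A47G and C65T, counted from the 5′ end of the gene with the base of TRN-GTT4-1 first. None of them falls in the B box core, at positions 54 to 62. TRN-GTT6-1 had a peak at percentile 91.4 in untreated siGl3 and TRN-GTT4-1 had none in any list. TRN-GTT4-1 lay in a stretch of 125.7 kb without any peak, and whether reads could be placed there was not tested.

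Of the 443 tRNA genes, 277 (62.5%, Wilson 95% interval 57.9 to 66.9, counting error only) had a tRNA peak. For 266 of them a peak was listed in all 4 conditions and for 11 in 1 to 3, while 166 had no peak in any list. A peak over the gene itself was in all 4 lists for 262 genes and in 1 to 3 for 14. By condition the number of genes with a peak was 270 in untreated siGl3, 276 in untreated siOrc6, and 271 in each list of H2O2-treated cells. The set of open tRNA genes was therefore nearly the same size in the 4 lists.

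The share with a peak differed widely between amino acids. All 20 proline genes and all 8 initiator methionine genes had a peak. So had 18 of 20 threonine genes, 22 of 26 serine genes, 11 of 13 tyrosine genes and 21 of 26 arginine genes. At the other end were 9 of 38 alanine genes (23.7%, Wilson 13.0 to 39.2), 8 of 26 asparagine genes (30.8%, 16.5 to 50.0) and 4 of 11 elongator methionine genes. The other amino acids lay between 45.0% for glutamate and 77.8% for histidine. Of the 2 selenocysteine genes, TRU-TCA1-1 on chromosome 19 had a peak at percentile 96.7 in untreated siGl3 and TRU-TCA2-1 on chromosome 22 had none. The plot of genes by amino acid shows these counts.

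**Figure D1:**
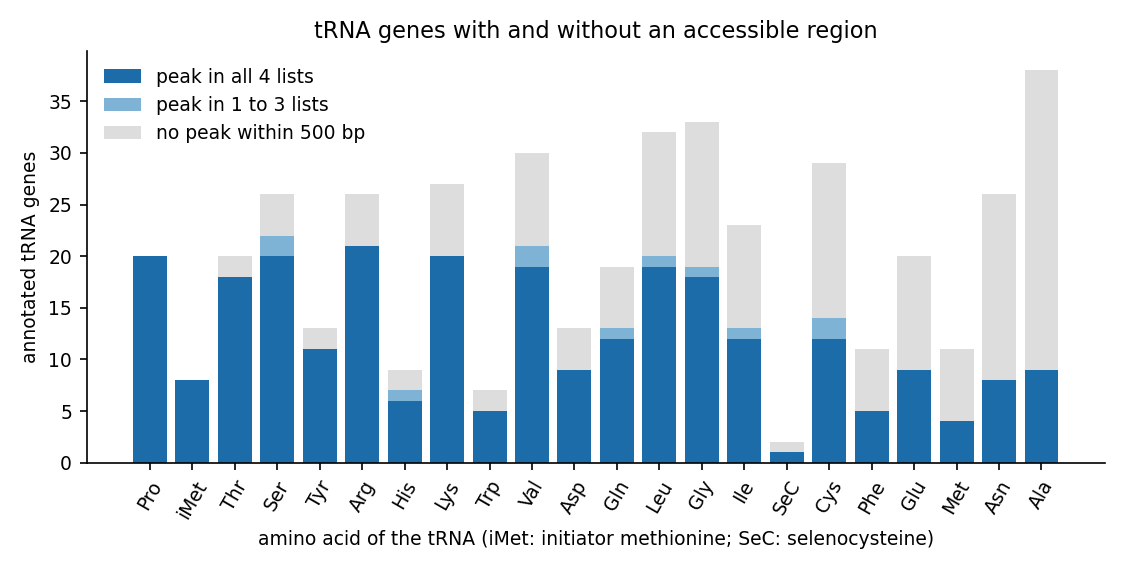
Bars give the number of annotated tRNA genes per amino acid, split into genes with a peak within 500 bp in all 4 lists (dark blue), in 1 to 3 lists (light blue) and in none (grey). Proline (20 of 20) and initiator methionine (8 of 8) are fully dark, and alanine has the most genes and 9 of 38 with a peak.

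These shares have to be read with the position of the genes. On chromosome 6, between 28501703 and 33481283, the 4 lists together held 1 merged peak in 4.98 Mb, where the average density of 4.38 peaks per 100 kb would give 218. The stretch holds 40 tRNA genes and 172 whole protein-coding genes. None of the 172 had a gene-end peak, against 14435 of the 19802 protein-coding genes elsewhere (72.9%). As the stretch was picked for its lack of peaks, this count follows from the choice. TRA-AGC2-2 of the sequences above is 1 of the 39 tRNA genes there without a peak. The 1 peak was a tRNA peak, at the leucine gene TRL-AAG2-2, 223 bp wide and listed in both siOrc6 conditions alone. Its percentile was 12.1 in untreated siOrc6 and 2.16 in siOrc6 with H2O2. The lists also name peaks on alternate versions of genome regions, 47 to 57 per list and 7 to 11 of them for chromosome 6, which were not used here. The sources used here do not say what was done with reads that match several places. The part of this in the empty stretch was not tested, and a tRNA gene without a peak there cannot be read as closed.

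Without this stretch 276 of 403 tRNA genes (68.5%) had a peak, and on the rest of chromosome 6 it was 81 of 115 (70.4%). Leaving the stretch out removed mostly genes without a peak, so these shares had to rise. The stretch held 15 of the 38 alanine genes and 6 of the 11 phenylalanine genes. Outside it all 5 phenylalanine genes had a peak, 9 of 23 alanine genes and 4 of 9 elongator methionine genes. The asparagine count did not change, with 8 of 26, since no asparagine gene lies there. In all, 75 of the 166 tRNA genes without a peak lay in 18 stretches of at least 100 kb with no merged peak, and 91 lay outside such stretches. Among the first were 8 genes of alanine, isoleucine and methionine in 199.1 kb of chromosome 6 and 3 isoleucine genes, TRI-GAT1-1 to TRI-GAT1-3, in 274.8 kb of the X chromosome. Asparagine genes also lay in such stretches: TRN-GTT2-5, TRN-GTT2-7, TRN-GTT2-8, TRN-GTT3-1, TRN-GTT4-1, TRN-GTT7-1, TRN-GTT9-2, TRN-GTT10-1, TRN-GTT25-1, TRN-GTT26-1 and TRNAN-GUU. The low asparagine share thus also has to be read with position.

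Clusters ranged from fully open to empty. With genes at most 10 kb apart joined there were 226 groups, 142 of them a single gene. Of genes alone within 10 kb 60.6% had a peak, and of genes in clusters of at least 4 62.7%. Outside the empty stretch of chromosome 6, which was picked for its lack of peaks, it was 62.8% and 70.9%. On chromosome 17 all 7 genes at 8220869 to 8227064 and all 5 at 8119155 to 8125816 were covered, and with gaps of up to 100 kb allowed the 18 genes of that region were all covered. On chromosome 11 all 8 genes at 59550629 to 59566452 had a peak, and on chromosome 16 13 of the 14 arginine, lysine and proline genes at 3150674 to 3192060. On chromosome 6, the region at 27478812 to 27795932 had a peak at 30 of 33 genes. The largest cluster, 24 aspartate, glutamate, glycine and leucine genes at 161440171 to 161480636 on chromosome 1, had 3. It is a tandem repeat in which genes of the same name recur every 7373 to 7395 bp (medians by gene), and the first aspartate copy, TRD-GTC2-1, had a peak while the other 4 did not. In the empty stretch of chromosome 6 the clusters of 8 alanine and phenylalanine genes and of 7 genes of 5 amino acids had none. On chromosome 7, 2 of 13 cysteine and serine genes at 149546540 to 149707740 had a peak.

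Genes with one and the same tRNA sequence were not all alike. Among 24 sets of at least 4 such genes, 11 had a peak at every copy and 13 at some copies. The initiator methionine set TRX-CAT1 had all 8 and the proline set TRP-AGG2 all 8. The aspartate set TRD-GTC2 had 7 of 11, and the 4 copies without a peak were those of the tandem repeat. In the histidine set TRH-GTG1, 7 of 9 had a peak, and TRH-GTG1-4 on chromosome 1 and TRH-GTG1-6 on chromosome 9 had none. In the asparagine set TRN-GTT2, 5 of 8 had a peak, and the other 3, TRN-GTT2-5, TRN-GTT2-7 and TRN-GTT2-8, each lay in a peak-free stretch of over 100 kb. The glutamate set TRE-CTC1 had 2 of 7, with 4 of the other 5 in the tandem repeat and 1 in the empty stretch of chromosome 6. The leucine set TRL-CAG1 also had 2 of 7, with the other 5 all in the tandem repeat. The valine set TRV-CAC1 had 4 of 7. Reads from identical copies can match several places, and the part of this in the missing peaks was not tested.

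The share with a peak was lower for sets with high family numbers, as counted: 26 of 76 genes (34.2%) with a number of 6 or more, against 79 of 116 (68.1%) with number 1 and 84 of 104 (80.8%) with number 2. None of the 20 genes whose symbol has no family number had a peak, where 3 counts of the total would be 15.0%. Of these genes, 18 of the 76 and 11 of the 20 lay in the peak-free stretches of at least 100 kb. Outside those stretches 26 of 58 genes with a number of 6 or more had a peak, against 163 of 197 with number 1 or 2. Those stretches are defined by having no peak, so leaving them out can only raise both shares. No test of the difference was made.

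The initiator methionine genes, whose tRNA starts every cytosolic protein, each had a peak over the gene itself, in all 4 lists for 7 of 8 copies. In untreated siGl3 these peaks ranged from percentile 14.8 to 99.45 with a median of 90.9. TRX-CAT1-8 on chromosome 17 and TRX-CAT1-1 on chromosome 1 were the highest, at 99.45 and 98.9. The lowest were TRX-CAT1-4 and TRX-CAT1-2, both on chromosome 6. The peak over TRX-CAT1-4 stood at 14.8 in untreated siGl3, 27.0 in untreated siOrc6, 36.2 in siGl3 with H2O2 and 30.9 in siOrc6 with H2O2. The peak over TRX-CAT1-2 stood at 14.9, 35.4 and 12.6 and was absent from siGl3 with H2O2, although a stronger peak 438 bp away was in all 4 lists. None of the 8 lay at a region that the authors listed as changed.

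tRNA peaks were among the strongest and widest of each list. Peak signal is the authors' value in the seventh column and is used here as a percentile within its list. For the values per list, the peaks at tRNA genes were counted before merging. There were 238 in untreated siGl3, 236 in untreated siOrc6, 241 in siGl3 with H2O2 and 233 in siOrc6 with H2O2. The median percentile of these peaks was 88.5, 89.2, 86.9 and 85.9 in the same order. Between 42.5% and 47.9% of them ranked in the top 10% of their list, and 4 to 7 per list ranked in the lowest 10%. Median widths were 1018.5, 1109, 972 and 1068 bp in the same order, against 471, 485, 453 and 468 bp for all peaks. Width went with rank as in other peaks: the merged tRNA peaks had a median width of 1214 bp, and other peaks of the same rank 1199 bp. At the same width the tRNA peaks ranked somewhat higher, with a median highest percentile of 89.7 against 84.5.

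**Figure D2:**
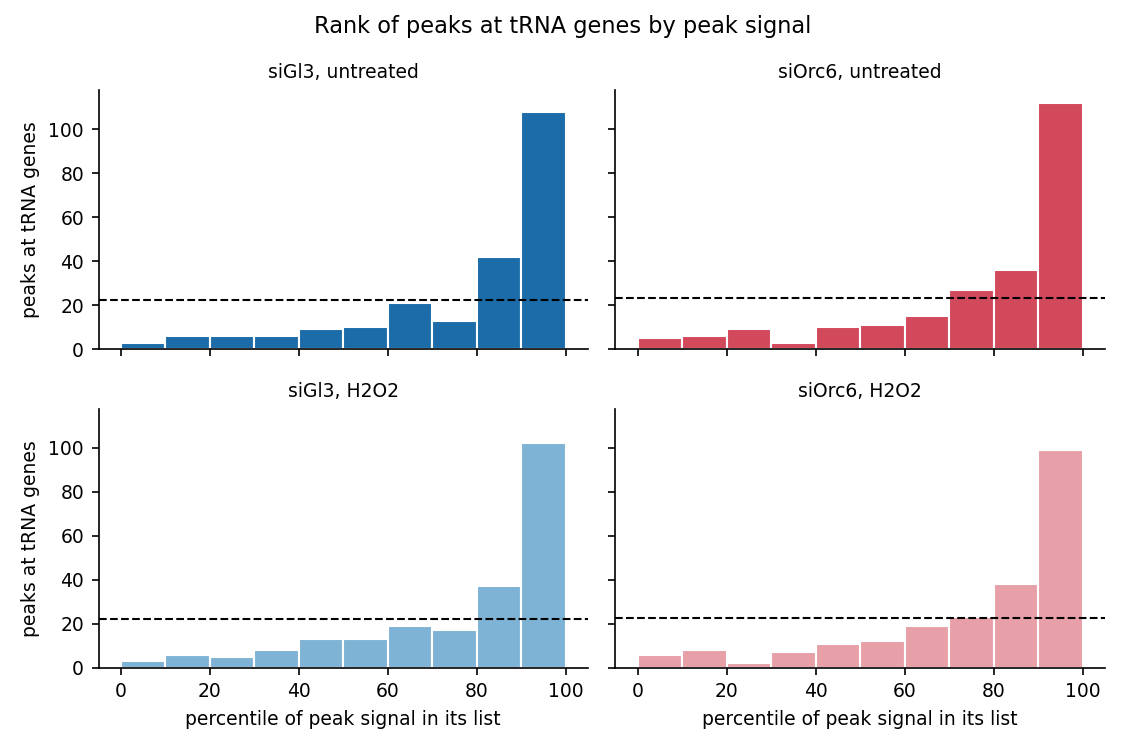
Histograms of the percentile of peak signal for merged tRNA peaks, 1 panel per list, in steps of 10 percentiles. The dashed line is the count per step if tRNA peaks ranked like all peaks of the list, and the highest step holds 4 to 5 times that count in each panel.

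The 8 highest tRNA peaks in untreated siGl3 covered 20 genes of 11 amino acids. First was a 5526 bp peak on chromosome 14 with TRT-TGT5-1, TRY-GTA5-5 and TRP-TGG3-2, whose peak signal was 22197 in untreated siGl3, 26180 in untreated siOrc6, 17725 in siGl3 with H2O2 and 20616 in siOrc6 with H2O2. It also covers an end of ANG, the gene of angiogenin, a nuclease that cuts tRNAs. The second, on chromosome 17, held 3 arginine genes, TRR-CCT1-1, TRR-CCT2-1 and TRR-TCG3-1, at percentile 99.98 in untreated siGl3. The others ranked at or above 99.92 there and lay on chromosomes 2, 5, 11, 16 and 17. None of the 8 was at a changed region, which at a background of 6.85% higher and 4.74% lower in untreated siOrc6 is no result about them. The widest tRNA peak, 6041 bp on chromosome 17 with the cysteine genes TRC-GCA2-2 and TRC-GCA4-1, had percentiles of 99.7, 99.8, 99.8 and 99.8 in the same order.

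Peaks with more genes ranked higher and were wider. A wide peak can reach more genes, and no comparison at equal width was made here. The 185 tRNA peaks with 1 gene had a median highest percentile of 82.7, the 40 with 2 genes 96.8 and the 11 with 3 or 4 genes 99.7, with median widths of 1010, 1896.5 and 3711 bp. Of the 236, 51 (21.6%) were within 1 kb of an end of a protein-coding gene, against 13.2% of all merged peaks and 32.2% of other peaks matched on rank and width. For matching, other peaks were averaged over 10 by 10 classes of highest percentile and width with the weights of the tRNA peaks. The 185 tRNA peaks away from gene ends still had a median highest percentile of 84.5. tRNA peaks were thus not placed at gene ends more often than other strong, wide peaks.

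The peak point, the position of highest signal in the deposited lists, lay close to the gene. Among list peaks with 1 tRNA gene, 167 to 171 per list, the median distance from this point to the middle of the gene was 101.5 to 119 bp. Between 45.0% and 49.1% of the points lay within 100 bp, and 32.9% to 34.7% lay inside the gene. The gene filled on average 9.91% to 11.8% of the width of these peaks. These peaks were chosen for lying near a gene, so an even spread over the peak is no fair comparison. The centre of the peak was itself a median of 135 to 156 bp from the middle of the gene. Whether the point is drawn to the gene beyond this was not tested. The gene table has no strand, so upstream and downstream could not be told apart.

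**Figure D3:**
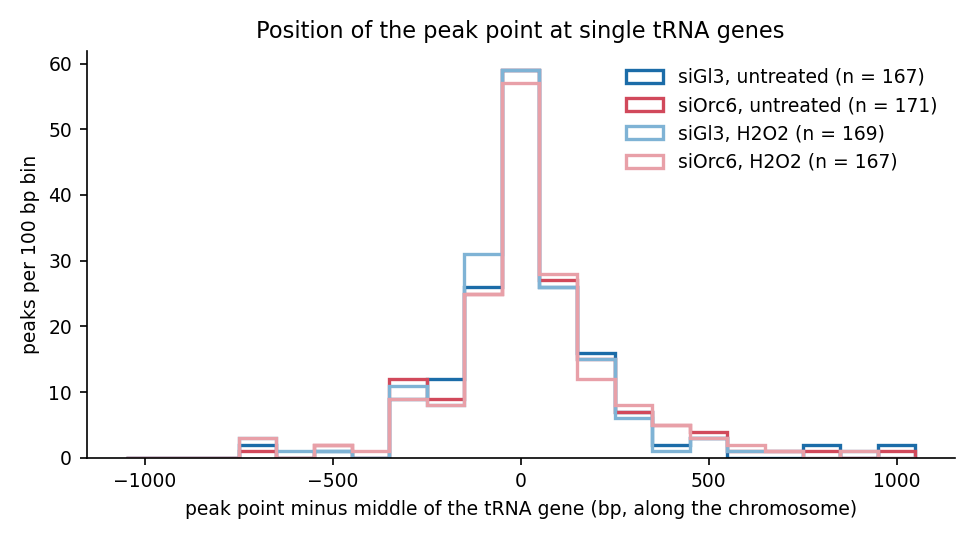
Number of peaks per 100 bp bin of the distance from the middle of the tRNA gene to the peak point, along the chromosome, 1 line per list, for peaks with 1 tRNA gene; 4 points beyond the axis in 3 lists are not drawn. The middle bin is the highest in each of the 4 lists.

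Of the 236 tRNA peaks, 217 overlapped a tRNA gene and 19 lay beside one. The 19 were weaker, with a median highest percentile of 55.4 and 13 of 19 in all 4 lists. Just inside the limit of 500 bp were peaks at gaps of 438, 456 and 466 bp, at TRX-CAT1-2, TRP-TGG3-4 and TRA-AGC11-1, with highest percentiles of 89.5, 1.64 and 43.5. Just outside were peaks at 539, 545 and 572 bp from TRV-AAC1-3, TRV-AAC1-5 and TRL-AAG2-4, with highest percentiles of 58.6, 72.3 and 1.22. Each of those 3 genes had another peak nearer by and counts as open.

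tRNA peaks were listed in all 4 conditions more often than peaks in general, but about as often as other peaks of their rank and width. In all 4 lists were 216 (91.5%, Wilson 87.3 to 94.5), against 62.1% of all merged peaks and 90.1% of matched peaks. Of the 20 that missed at least 1 list, 4 were in the untreated siOrc6 list alone, at TRH-GTG1-2, TRW-CCA3-2, TRR-ACG2-4 and TRP-TGG3-4, where all merged peaks had 6841 of 129052. Another 3 were in both siOrc6 lists and no siGl3 list, at TRS-TGA2-1, TRL-AAG2-2 and TRC-GCA9-3. None were in both siGl3 lists and no siOrc6 list. Over all 129052 merged peaks the siOrc6 pattern had 1973 and the siGl3 pattern 4674. The counts over all merged peaks were not matched on rank and width, and the tRNA counts are too small to compare with them. The 2 in both untreated lists alone were at TRS-GCT6-1 and TRW-CCA4-1, and none were in both H2O2 lists alone, against 6268 and 1865 of all merged peaks. All 20 were weak peaks, with percentiles of at most 43.5 in any list.

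By list, 224 tRNA peaks (94.9%, Wilson 91.3 to 97.1) were present in untreated siGl3 and 234 (99.2%, 97.0 to 99.8) in untreated siOrc6. Matched peaks gave 96.8% and 95.5%. With H2O2 the counts were 223 (94.5%) for siGl3 and 225 (95.3%) for siOrc6, and matched peaks gave 94.6% and 93.4%. The value for untreated siOrc6 was the one whose interval lay above the matched share. The intervals hold counting error only, and tRNA peaks that share a cluster are not independent, so this is no test. The lists hold different numbers of peaks, 115292 and 109304 untreated and 103674 and 97816 with H2O2, in each case fewer for siOrc6. With 1 list per condition the difference has no replicate check.

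**Figure D4:**
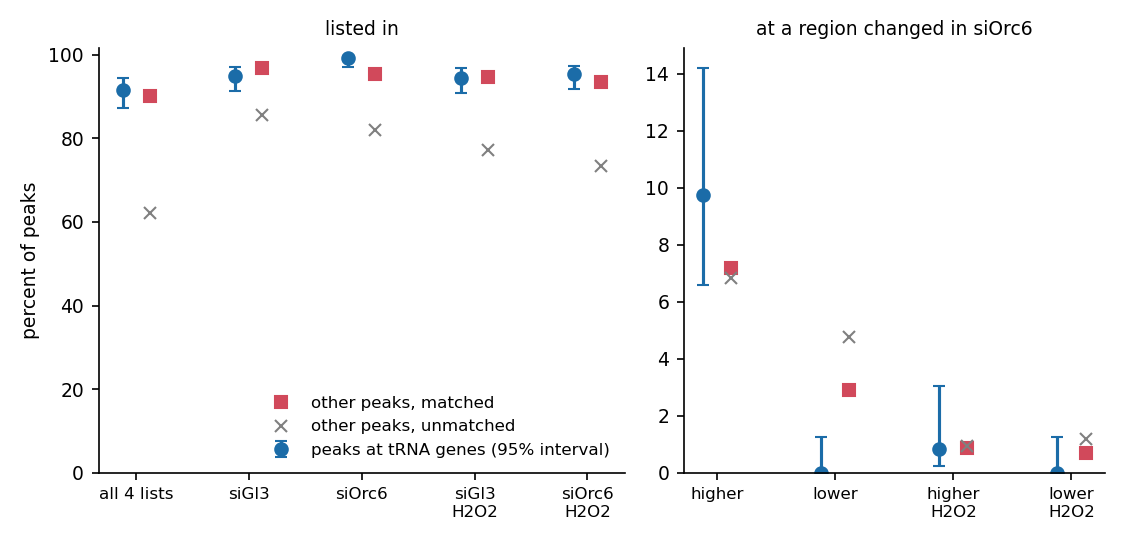
Left, percent of tRNA peaks in all 4 lists and in each list, and right, percent at a region the authors listed as changed in siOrc6, with Wilson 95% intervals, or up to 3 counts of the total where the count is 0 (blue), beside other peaks matched on rank and width (red squares) and all other peaks (grey crosses). In untreated cells 9.75% of tRNA peaks were at a higher region and 0 at a lower one, where matched peaks gave 7.17% and 2.91%.

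The authors' deposited lists of changed regions were used to compare siOrc6 with siGl3. They give positions without fold or p-value. In untreated cells 23 of 236 tRNA peaks (9.75%, Wilson 6.58 to 14.2) overlapped a region listed as higher in siOrc6, against 6.85% of all merged peaks and 7.17% of matched peaks (16.9 peaks). The 23 lay at 17 separate regions. With peaks up to 500 bp apart joined, a distance chosen here, it was 17 of 208 (8.17%) against 6.39% overall. With 1 tRNA peak per cluster it was 4.08% of 147 for the first or the highest-ranked peak and 4.76% for the last. The share was near the background in each of these counts, above it in the first 2 and below it in the third, and is no result about tRNA genes as a group.

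No tRNA peak overlapped a region listed as lower in untreated siOrc6. The background was 4.74%, and matched peaks gave 2.91%, or 6.86 peaks. A count of 0 of 236 allows a share of up to 1.27% (3 counts of the total, counting error only; used for every share of 0 here), and tRNA peaks that share a cluster are not independent. The count stayed at 0 for peaks within 1000 bp of a tRNA gene, a setting that adds peaks. Without chromosome 6 and with 1 peak per cluster it was also 0. Those settings only leave out some of the 236 peaks, so their count had to be 0. Peaks at replication-dependent histone genes (0 of 41) and at cytosolic ribosomal protein genes (0 of 152) also had no lower region, and those at protein-coding gene ends 1.10% of 17074. In the higher direction these 3 sets had 16 of 41 (39.0%), 9 of 152 (5.92%) and 8.20%. A count of 0 was thus not particular to tRNA peaks. The histone and ribosomal protein sets lay mostly at gene ends, however, with 82.9% and 77.6% of their peaks, against 21.6% of tRNA peaks. At the gene-end share of 1.10%, few lower regions were to be counted among 41 and 152 peaks. Other peaks matched on rank, width and gene end gave 3.11% at a lower region. Whether tRNA peaks differ from those sets was not tested.

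Each of the 17 higher regions overlapped at least 1 tRNA gene, 21 genes in all. Valine genes were the most frequent, with 5 of the 21 valine genes that had a peak, TRV-CAC5-1, TRV-AAC1-3, TRV-AAC1-4, TRV-AAC5-1 and TRV-CAC2-1. Over all amino acids it was 21 of the 277 tRNA genes with a peak. TRV-AAC1-3 and TRV-AAC1-4 are copies of the same set. Their peaks stood at percentiles 94.90 and 98.58 in untreated siGl3 and 94.84 and 98.26 in untreated siOrc6, so neither rose in rank. The peaks at TRV-CAC5-1, TRV-AAC5-1 and TRV-CAC2-1 did. The region at TRV-AAC1-3 also holds a peak 539 bp from the gene. That peak was absent from untreated siGl3 and at percentile 58.6 in untreated siOrc6. A call does not say which part of a region differed. The counts per amino acid are small, and no test between amino acids was made. There were 3 glycine and 3 proline genes, 2 each for isoleucine and lysine, and 1 each for cysteine, glutamate, leucine, phenylalanine, serine and threonine. No alanine, arginine, asparagine, aspartate, glutamine, histidine, methionine, tryptophan or tyrosine gene was among them. The regions were spread over 9 chromosomes, with 5 of the 23 peaks on chromosome 6. They were of middling strength, with a median highest percentile of 77.3 against 90.5 for the other 213 tRNA peaks, and 21 of 23 were in all 4 lists. At protein-coding gene ends were 2 of the 23, both at TRG-CCC2-1 on chromosome 2.

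The valine gene TRV-CAC2-1 on chromosome 6 was the one of the 23 whose percentiles in the untreated lists lay farthest apart. Its peak was 1384 bp wide, with percentiles of 43.3 in untreated siGl3, 77.3 in untreated siOrc6, 50.0 in siGl3 with H2O2 and 67.0 in siOrc6 with H2O2. The authors' peak signal there was 653.1 and 2259 untreated and 781.1 and 1504 with H2O2. Both siOrc6 values were above both siGl3 values, but the lists are scaled by the authors in a way not given here, and the H2O2 list of changed regions does not hold this peak. The cysteine gene TRC-GCA6-1 on chromosome 3 stood at 51.8 in untreated siGl3 and 65.6 in untreated siOrc6, and at 38.1 and 46.2 with H2O2. The lysine gene TRK-TTT1-1 on chromosome 16 stood at 62.9 and 74.2 untreated and at 57.8 and 63.8 with H2O2. The isoleucine gene TRI-AAT8-1 of the sequences above stood at 86.2 and 88.8 untreated and at 89.2 and 86.7 with H2O2. Strong peaks were called as well: that over TRP-AGG2-7 and TRP-TGG3-4 on chromosome 16 stood at 99.06 and 99.25 untreated.

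**Figure D5:**
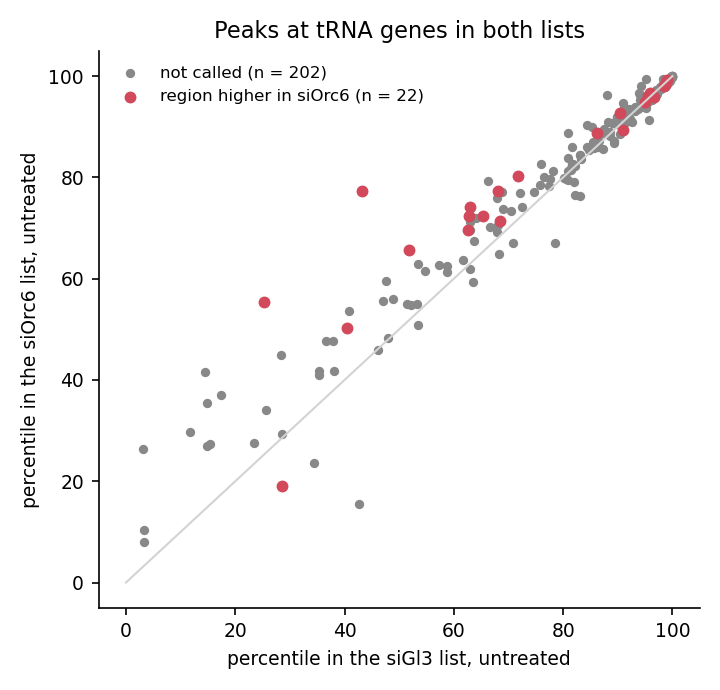
Percentile of peak signal in the untreated siGl3 list (x) and the untreated siOrc6 list (y) for the 224 tRNA peaks present in both, with the 22 at a region listed as higher in siOrc6 in red and the line of equal percentile in grey. Most points lie near the line, and red points occur from percentile 25.3 to 99.06 of siGl3.

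Some higher regions held more than 1 tRNA peak. On chromosome 1 the region at 161529541 to 161531579 joined 3 peaks around TRL-CAG1-6 and TRG-TCC2-6, which differed among themselves. The outer one at 161529542 stood at percentile 25.3 in untreated siGl3 and 55.4 in untreated siOrc6, that over the leucine gene at 28.6 and 19.1, and the third at 90.9 and 89.3. A call for such a region does not say which of its peaks differed. On chromosome 16 the weak peak at 3184661, in the untreated siOrc6 list alone, shared its higher region with the strong peak beside it.

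With H2O2, 2 of 236 tRNA peaks (0.848%, Wilson 0.233 to 3.04) overlapped a region listed as higher in siOrc6, against 0.945% of all merged peaks and 0.853% of matched peaks. Both lay in 1 region on chromosome 11 at 59555189 to 59558185, with the phenylalanine gene TRF-GAA1-3 and the lysine gene TRK-TTT5-1. It overlaps the region listed as higher there in untreated cells. The larger of the 2 peaks stood at 95.9 in untreated siGl3, 96.6 in untreated siOrc6, 91.25 in siGl3 with H2O2 and 93.4 in siOrc6 with H2O2. No tRNA peak overlapped a region listed as lower in siOrc6 with H2O2, where the background was 1.19% and matched peaks gave 0.689%, or 1.63 peaks, so few were to be counted at this number. The lists of changed regions do not compare H2O2 with no treatment.

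Most other genes of RNA polymerase III had a peak, apart from 5S rRNA. Of 20 other such genes 18 had a peak within 500 bp. RMRP and RPPH1, the RNAs of RNase MRP and RNase P, RN7SL1 and RN7SL2 of the signal recognition particle, and RN7SK, which restrains polymerase II elongation, stood above percentile 98.5 in every list. RNY4 and VTRNA2-1 had none. The 3 vault RNA genes VTRNA1-1 to VTRNA1-3 ranked from 89.8 to 97.4. The peaks at RNY1, RNY3 and RNY5 were weaker, at percentiles from 20.7 to 48.0. A peak within 500 bp of RNY1 overlapped a region higher in untreated siOrc6, where the background of all merged peaks was 6.85%. One at RNU6-7 overlapped a region higher in siOrc6 with H2O2, where it was 0.945%. None of the 17 genes of 5S rRNA, a tandem repeat on chromosome 1, had a peak. Whether reads could be placed in this repeat was not tested.

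Nearly all protein-coding genes of the pathway had a peak at an end in each condition. This held for 18 of 18 subunits of RNA polymerase III, 18 of 19 of its factors and regulators, 31 of 33 genes of tRNA processing and export, and 18 of 20 cytosolic aminoacyl-tRNA synthetases, which load tRNAs with their amino acids. Over all protein-coding genes it was 67.7%. Without a peak were BDP1, a TFIIIB subunit, RPP21, TSEN34, CARS1 and VARS1, of which RPP21 and VARS1 lie in the empty stretch of chromosome 6. The share of protein-coding genes with a gene-end peak that had a region higher in untreated siOrc6 at an end was 9.42%, and lower 1.3%. Against this 1 of 18 subunits was higher (POLR3C), 2 of 18 factors (GTF3C6 and TBP), 2 of 31 processing genes (RPP25 and ADAT3) and 6 of 18 synthetases (AARS1, GARS1, KARS1, QARS1, SARS1 and WARS1). None of these genes was lower, and no test of these shares was made. The gene of the subunit POLR3E shares its end peak with the leucine tRNA gene TRL-AAG2-4, at percentile 99.1 in untreated siGl3 and 99.1 in untreated siOrc6, and this peak was not called.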

How the data were processed

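Per the submitters' processing notes, Genrich, edgeR, Bowtie2, SAMtools, Picard, deepTools and bcl2fastq 2.20 were used with build hg38, with no role or threshold given. The authors deposited 1 peak list per condition, with a peak signal (column 7), a −log10 p-value (column 8) and a peak point, and lists of changed regions with positions alone. These values only rank peaks within a list, and no read counts were used, so the depth behind a peak is unknown. The lowest signal in each list was 200.0. Peaks off chromosomes 1 to 22 and X (147 to 168 per list) and 22 mitochondrial tRNA genes were left out. Overlapping or touching peaks were merged, and 1 shared bp counted as overlap (Python 3.11.15, pandas 2.3.3, numpy 2.4.6). Overlaps were checked against bedtools 2.31.1, and matching was tested on simulated data. Sequences are from RefSeq, GRCh38.p14. Intervals are 95% Wilson intervals. tRNA peaks, gene lists and comparisons were chosen with earlier results of these data known. 1 blood marker is not reported here. Named tRNA peaks were the 8 strongest, the 5 widest, those at changed regions, those listed under 1 siRNA or treatment alone and those nearest the 500 bp limit, with initiator methionine and selenocysteine genes, large clusters and mixed sets; the genes whose sequences are printed were picked with their values in view. Alternatives changed the distance, a signal minimum of 400, the matching, chromosome 6, clusters and gene ends.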

Additional observations from a re-analysis of the deposited data

How the results depend on the processing

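Of 95 alternative values, 80 moved by less than counting error (or less than 1.5 times, for numbers) and 15 by more. The number of tRNA peaks was 153 without chromosome 6 and 147 with 1 peak per cluster of 10 kb. With the first peak of each cluster the share at a region higher in siOrc6 was 4.08% untreated and 0 with H2O2. With the last or the highest-ranked peak, both added after seeing the data, the number was 147, the share 4.76% or 4.08% untreated and 0 with H2O2, and 95.2% of the highest-ranked were in all 4 lists. The cause was not tested. The first-peak setting was not run for the share of genes. The share of tRNA genes with a peak was 67.7% without chromosome 6, 46.0% without peaks at protein-coding gene ends, and 68.5% without the stretch of chromosome 6 almost free of peaks, the last chosen after seeing the data, as was joining peaks 500 bp apart. The share of other peaks in all 4 lists was 62.0% with no matching. Leaving out libraries was not possible, since each list covers both. No paired analysis was possible because each condition has 1 list for both replicate numbers. Depth is unknown, so a missing peak does not show closed chromatin, least of all at repeated tRNA genes.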
